A study of Mus musculus with 8 samples.

Results

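The endoplasmic reticulum (ER) chaperones and unfolded protein response (UPR) genes followed here are 9 named rows of a deposited table of 18102 genes: Hspa5, Hsp90b1, Calr, Dnajb9, Sdf2l1, Pdia4, Herpud1, Edem1 and Xbp1. They were taken by name, from a set chosen with earlier results of these data known, and each was read in all 8 libraries of the series. The genes did not move as a block. Under TGFβ the chaperone Hspa5 and its cochaperone Dnajb9 fell while Herpud1 and Xbp1 rose, in both genotypes. In libraries labelled KO, Hspa5, Calr and Xbp1 were lower and Dnajb9 was higher than in WT, under both treatments. Edem1 and Sdf2l1 passed the test in no comparison.

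Transcripts were sequenced from NMuMG cells, an immortal epithelial line of mouse mammary origin, in 4 groups of 2 libraries. KO-labelled cells (RREB1 KO) received 100 pM TGFβ for 1.5 h or 2.5 µM SB505124 for 6 h, and so did RREB1 WT cells, in every group after 6 h without serum. SB505124 inhibits the kinase of the TGFβ type I receptor, so its libraries are receptor-inhibited rather than untreated, and effects of treatment and of treatment time cannot be told apart. All KO columns carry the code KO1, taken here as 1 clone, so effects of the genotype and of that clone cannot be told apart either. Nothing in the labels says that replicates were separate cultures, so p-values reach no further than these samples. The spread behind them was estimated per gene and moderated towards a trend over all tested genes.

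The UPR adjusts the folding capacity of the ER to its load. Hspa5 encodes BiP, the HSP70 chaperone of the ER lumen, which also binds the stress sensors IRE1, PERK and ATF6 when few unfolded proteins are present. When the load grows, IRE1 splices Xbp1 mRNA so that it encodes an active transcription factor, PERK phosphorylates eIF2α and favours translation of ATF4, and ATF6 is cut by Golgi proteases to release another factor. These factors raise chaperones, folding enzymes and ER-associated degradation (ERAD), the route by which misfolded proteins are returned to the cytosol for the proteasome. Gene-level counts do not separate spliced from unspliced Xbp1 mRNA, and they measure transcripts, not proteins.

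Promoter sequence is shown for the members that carry the ER stress element, because it is the feature by which ATF6 and XBP1 are known to act on chaperone genes. The element ERSE was searched as CCAAT and CCACG with 9 bases between them, and ERSE-II as ATTGG and CCACG with 1 base between them, on both strands. The windows ran 250 bases before to 50 bases after the RefSeq start site on GRCm38.p6 (300 bases), and all 9 genes had one. ERSE matched in 3 of the 9 genes, and in 37 of all 27025 genes, these included (39 of 32851 windows, 0.119%). ERSE-II matched in 1 of the 9, and in 12 of all genes (12 windows, 0.0365%). The 9 genes were taken by name as chaperone and UPR genes, for which the element is known. These shares are therefore no test of enrichment. The 250 bases upstream of the start are given 5′ to 3′ on the strand of the gene, with the matched letters in capitals.
Hspa5 (chr2:34771840-34772089, plus strand): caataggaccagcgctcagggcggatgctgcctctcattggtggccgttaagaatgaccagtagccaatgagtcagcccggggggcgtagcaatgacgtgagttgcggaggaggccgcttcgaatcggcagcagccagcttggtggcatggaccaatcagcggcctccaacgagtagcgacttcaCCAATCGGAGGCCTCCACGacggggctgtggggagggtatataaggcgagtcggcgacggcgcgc
Hsp90b1 (chr10:86705445-86705694, minus strand): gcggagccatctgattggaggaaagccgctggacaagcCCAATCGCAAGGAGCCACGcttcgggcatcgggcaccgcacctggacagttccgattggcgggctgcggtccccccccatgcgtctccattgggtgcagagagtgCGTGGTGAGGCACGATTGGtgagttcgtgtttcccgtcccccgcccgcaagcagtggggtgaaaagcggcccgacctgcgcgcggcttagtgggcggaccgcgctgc
Calr (chr8:84846932-84847181, minus strand): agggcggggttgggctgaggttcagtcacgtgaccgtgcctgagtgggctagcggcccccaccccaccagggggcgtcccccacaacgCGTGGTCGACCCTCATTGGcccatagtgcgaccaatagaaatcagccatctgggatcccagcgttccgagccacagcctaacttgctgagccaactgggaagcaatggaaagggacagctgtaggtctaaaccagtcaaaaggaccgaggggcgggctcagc
Herpud1 (chr8:94386179-94386428, plus strand): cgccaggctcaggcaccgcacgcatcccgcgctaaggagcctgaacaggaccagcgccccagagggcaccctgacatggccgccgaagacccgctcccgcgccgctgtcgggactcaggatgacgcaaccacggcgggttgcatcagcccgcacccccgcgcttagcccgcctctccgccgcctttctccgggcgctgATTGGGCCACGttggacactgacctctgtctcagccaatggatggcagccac
In Hspa5 the ERSE lay 65 to 47 bases before the start. Hsp90b1 held 2, one 212 to 194 bases before the start and one on the opposite strand 107 to 89 bases before it. That of Calr lay on the opposite strand, 162 to 144 bases before the start. Herpud1 held the ERSE-II 52 to 42 bases before its start. It also held the C/EBP-ATF response element, searched as TGATG and AA with 1 base between them, 112 to 105 bases before the start on the opposite strand, a match found in 3.97% of all windows. The XBP1 element, searched as TGACG followed at 0 bases by TGG, was in none of the 9 windows, against 0.676% of all windows, and Dnajb9, Sdf2l1, Pdia4, Edem1 and Xbp1 held none of these 4 motifs within 300 bases. The outermost starts of Hspa5, Hsp90b1, Calr and Dnajb9 in GENCODE M21 lie upstream of the RefSeq starts used here. For Dnajb9 all 250 bases before the RefSeq start fall within the GENCODE gene, so its window does not reach upstream of that start. A match only says that the letters are there, and its absence only that they are not in this window.

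**Figure D1:**
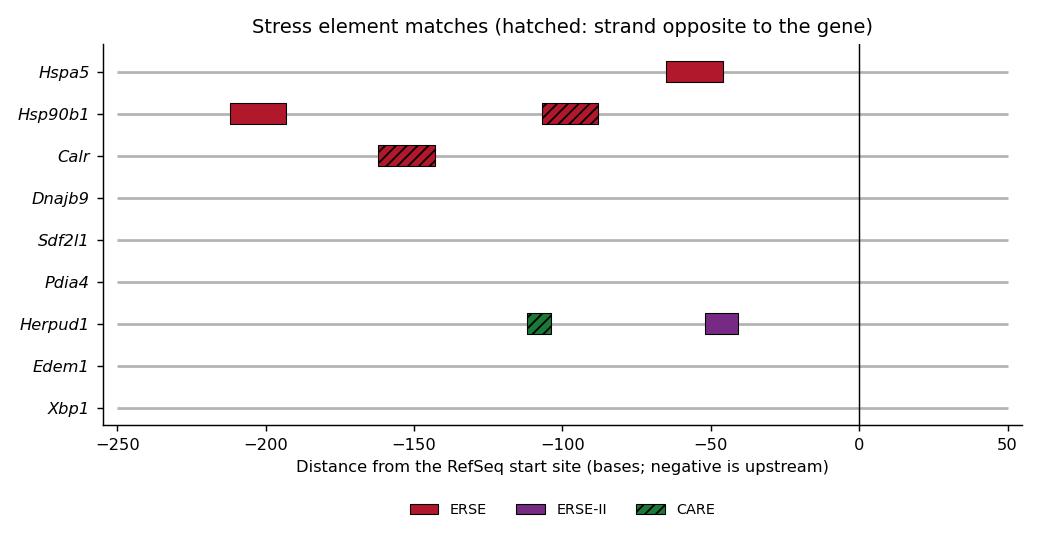
Position of each motif match in the promoter windows of the 9 genes, in bases from the RefSeq start site (line at 0, upstream to the left), with colours for the motifs and hatching for matches on the strand opposite to the gene. Matches stand in 4 genes, that of Hspa5 65 to 47 bases before the start and the 2 of Hsp90b1 farther out.

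Reads counted over all 18102 genes summed to 25144204 to 32143113 per library. Of these, the 9 genes took 0.296% and 0.287% in KO-labelled cells under TGFβ and 0.331% and 0.335% under SB505124. In WT cells they took 0.335% and 0.311% under TGFβ and 0.402% and 0.382% under SB505124. Their lowest value was 387 reads (Dnajb9, WT TGFβ replicate 2, counting error 5.08%) and their highest 35590 reads (Hsp90b1, KO-labelled SB505124 replicate 2, counting error 0.530%). In both WT groups, all 9 genes were higher in replicate 1 than in replicate 2. Rreb1 itself was not lower in the libraries labelled KO, with normalised counts of 2481 and 2241 under TGFβ and 1327 and 1343 under SB505124, against 1959 and 1769 and then 1055 and 1033 in WT. Transcript counts do not show whether RREB1 protein was present, so they do not test the knockout. The label is used only as a name. Of the luminal epithelial markers, Krt8, Krt18, Krt19 and Cdh1 were high, while Epcam was at 0 in all KO-labelled libraries and at 4.01 to 36.6 in WT (4.01 to 8.11 under SB505124). The 5 measured luminal markers summed to 269075 and 272010 in KO-labelled cells under TGFβ and 185510 and 199074 under SB505124, and to 233164 and 234428 in WT under TGFβ and 172759 and 181842 under SB505124. The 4 fibroblast markers summed to 136 and 141 in KO-labelled cells under TGFβ and 35.4 and 45.8 under SB505124, and to 163 and 171 in WT under TGFβ and 126 and 128 under SB505124. Within that list Pdgfra was at 133 and 141 in KO-labelled cells under TGFβ and 34.4 and 44.0 under SB505124, against 111 and 123 in WT under TGFβ and 34.0 and 38.5 under SB505124, and so was high under TGFβ in both genotypes. Dcn was at 0 or 0.864 in KO-labelled libraries and 38.9 to 94.1 in WT. The 4 basal markers summed to 66.1 to 87.2 in KO-labelled and 17.2 to 57.9 in WT libraries, with Krt5 at 56.8 to 82.1 in KO-labelled and 0 to 3.43 in WT libraries and Krt14 at 0 in KO-labelled and 3.00 to 46.3 in WT libraries. Leukocyte markers summed to 205 to 227 in KO-labelled and 159 to 179 in WT libraries, most of it Cd68, endothelial markers to 3.72 to 13.5 and 14.2 to 40.0, and the 2 adipocyte markers to at most 14.0 in any library. The part of these shifts in the results was not tested. In bulk RNA, fewer cells of a type and less RNA per cell cannot be told apart.

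Per kilobase of annotated exon, Calr, Hsp90b1 and Hspa5 were the 3 most abundant of the 9 transcripts in every group, followed by Pdia4 and Herpud1. In KO-labelled cells under TGFβ, Calr had 8297 ± 312 normalised counts per kilobase and Dnajb9, the lowest, had 229 ± 24.5 (mean ± SD, n = 2), a span of 36.2-fold. The span was 22.1-fold in KO-labelled cells under SB505124, 58.8-fold in WT under TGFβ and 37.3-fold in WT under SB505124. Dnajb9 was last in 3 groups. In KO-labelled cells under SB505124 it stood level with Xbp1, at 412 ± 16.5 against 400.5 ± 27.8, and the libraries of these neighbours overlapped. All other neighbours in the order lay apart in both libraries, in each group. Xbp1 stood above Sdf2l1 in WT cells under TGFβ (807 against 624) and below it in the other 3 groups. These levels use the length of all exons in GENCODE M21, so they shift with which isoform the cells use.

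**Figure D2:**
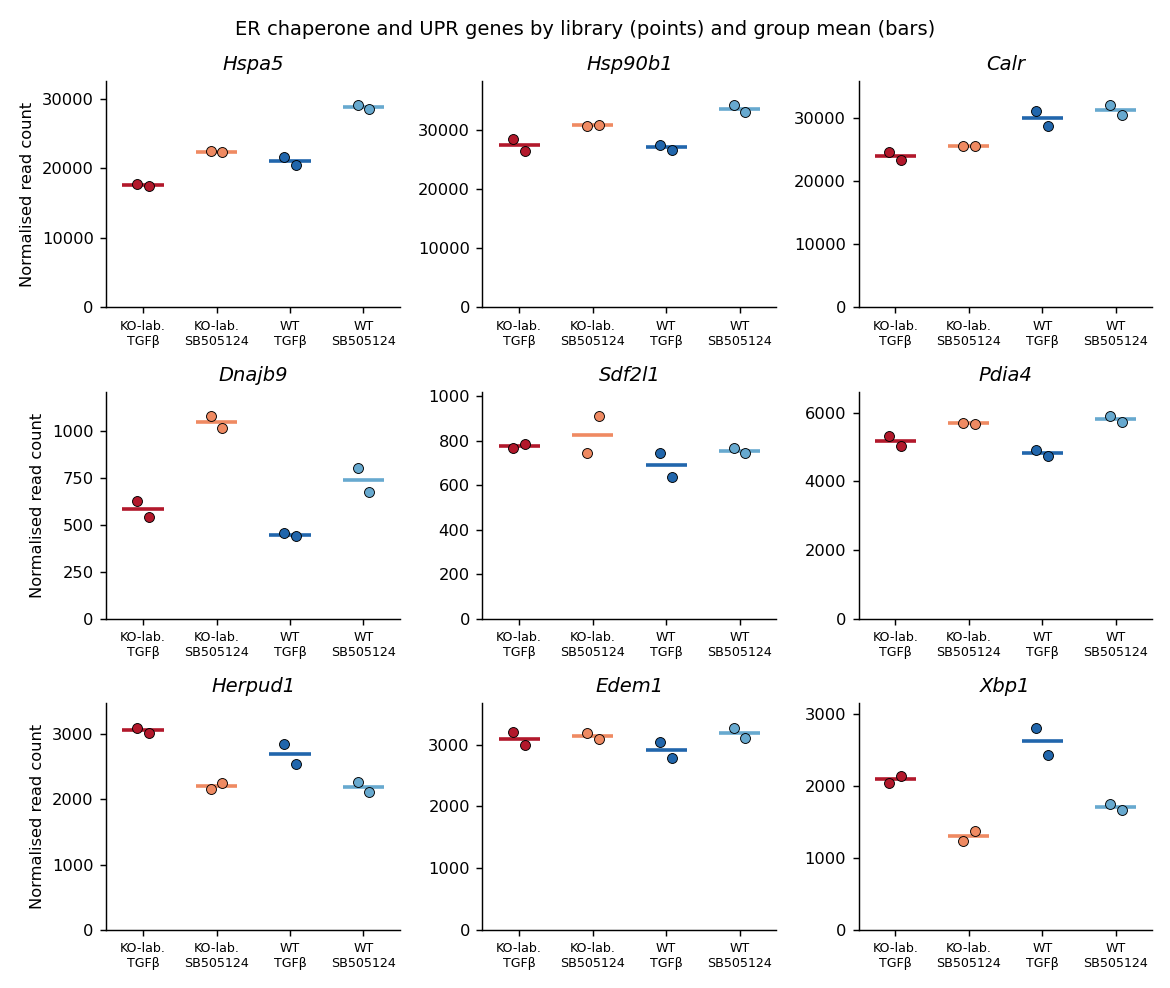
Normalised read counts of the 9 genes, each panel with its own vertical axis from 0, points for libraries and horizontal bars for means of 2 libraries, in the groups KO-labelled TGFβ, KO-labelled SB505124, WT TGFβ and WT SB505124. Hspa5 is lowest in KO-labelled cells under TGFβ (17410.2 and 17799) and highest in WT cells under SB505124 (28482 and 29086), and Xbp1 shows the opposite treatment pattern.

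A normalised count is a read count divided by the size factor of its library. Changes are log2 fold changes of these values (plus a pseudocount of 1) from limma, with an adjusted p under 0.05 counted as passing the test. Among the chaperones, Hspa5 (chr2:34771970-34777547 in GENCODE M21, plus strand) had normalised counts of 17799 and 17410.2 in KO-labelled cells under TGFβ and 22462 and 22403 under SB505124. In WT cells it had 21622 and 20563 under TGFβ and 29086 and 28482 under SB505124. The 4 groups did not overlap, and both TGFβ and the KO label went with lower values. TGFβ against SB505124 gave a log2 fold change of -0.35 ± 0.082 (SE) in KO-labelled cells (limma adjusted p = 0.00296) and -0.45 ± 0.082 in WT (limma adjusted p = 0.00024), or 1.27-fold and 1.37-fold lower. KO-labelled against WT gave -0.26 ± 0.082 under TGFβ (limma adjusted p = 0.00988) and -0.36 ± 0.082 under SB505124 (limma adjusted p = 0.00101). The call under TGFβ was lost without WT TGFβ replicate 1 (limma adjusted p = 0.0503) or KO-labelled TGFβ replicate 2 (limma adjusted p = 0.0609).

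Hsp90b1 encodes GRP94, the HSP90 chaperone of the ER. It had 28489 and 26438 normalised counts in KO-labelled cells under TGFβ and 30665 and 30739 under SB505124, against 27480.0 and 26624 in WT under TGFβ and 34104 and 32987 under SB505124. Both genotypes were lower under TGFβ in each library, and under TGFβ the genotypes overlapped. The fall in WT passed the test (-0.31 ± 0.087, limma adjusted p = 0.00737), though not without WT SB505124 replicate 1 (limma adjusted p = 0.0706), and the value in KO-labelled cells did not pass (-0.16 ± 0.087, limma adjusted p = 0.17). KO-labelled minus WT was 0.021 under TGFβ (95% interval -0.16 to 0.20) and -0.13 under SB505124 (-0.31 to 0.054). The gene (chr10:86690209-86705509) shares 4598 bases of its span with 1810014B01Rik on the opposite strand. The library kit does not mark strand, so strand cannot assign reads where opposite genes overlap. How the counting treated such reads is not given in the sources used here.

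Calr encodes calreticulin, a lectin chaperone that binds glycoproteins and calcium in the ER. Its normalised counts were 24532 and 23259.8 in KO-labelled cells under TGFβ and 25498 and 25578 under SB505124. In WT cells they were 31074 and 28629 under TGFβ and 31930.5 and 30404 under SB505124. Every KO-labelled library was below every WT library, and in WT the treatments overlapped. KO-labelled against WT gave -0.32 ± 0.087 under TGFβ (limma adjusted p = 0.00369), a 1.25-fold lower level, and -0.29 ± 0.087 under SB505124 (limma adjusted p = 0.00884). That under SB505124 did not pass without WT SB505124 replicate 1 (limma adjusted p = 0.0844) or KO-labelled SB505124 replicate 1 (limma adjusted p = 0.0592). The TGFβ response was -0.096 in KO-labelled cells (95% interval -0.28 to 0.087) and -0.063 in WT (-0.25 to 0.12).

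Of the cochaperones, Dnajb9 encodes ERdj4, a J-domain protein that brings BiP to the luminal domain of IRE1. It had 629 and 540.3 normalised counts in KO-labelled cells under TGFβ and 1079.6 and 1020.0 under SB505124. In WT cells it had 456 and 442 under TGFβ and 802 and 676 under SB505124. No groups overlapped, and its order set it apart from Hspa5, since KO-labelled libraries were the higher ones under each treatment. TGFβ against SB505124 gave -0.85 ± 0.11 in KO-labelled cells (limma adjusted p = 4.7e-06) and -0.71 ± 0.11 in WT (limma adjusted p = 3.3e-05), or 1.80-fold and 1.64-fold lower. KO-labelled against WT gave 0.38 ± 0.11 under TGFβ (limma adjusted p = 0.00497, 0.0932 without KO-labelled TGFβ replicate 1) and 0.51 ± 0.11 under SB505124 (limma adjusted p = 0.00045), or 1.30-fold and 1.42-fold higher. Sdf2l1, which encodes a luminal protein found in complex with ERdj3 and BiP, had 765 and 783 normalised counts in KO-labelled cells under TGFβ and 746 and 909 under SB505124, and 744 and 639 and then 765 and 744 in WT. Its libraries overlapped between treatments in both genotypes, and the spread between the 2 KO-labelled SB505124 libraries was wider than the difference between any 2 group means. Its log2 fold changes lay between -0.13 and 0.17 over the comparisons, with limma adjusted p of at least 0.183.

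Pdia4 encodes ERp72, a protein disulfide isomerase that forms and rearranges disulfide bonds. It had 5340.1 and 5036 normalised counts in KO-labelled cells under TGFβ and 5719 and 5669 under SB505124, and 4929 and 4734 in WT under TGFβ and 5898 and 5741 under SB505124. TGFβ libraries were below SB505124 libraries in both genotypes. The fall passed the test in WT (-0.27 ± 0.075, limma adjusted p = 0.00708), where it rested on WT SB505124 replicate 1 (limma adjusted p = 0.0709 without it), and the value in KO-labelled cells did not pass (-0.13 ± 0.075, limma adjusted p = 0.184). Genotypes differed by 0.10 under TGFβ (95% interval -0.054 to 0.26) and -0.031 under SB505124 (-0.19 to 0.13), and neither passed.

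Turning to ERAD, Herpud1 encodes an ER membrane protein that organises the HRD1 ubiquitin ligase complex. Its normalised counts were 3103 and 3013 in KO-labelled cells under TGFβ and 2164 and 2246 under SB505124, against 2850.4 and 2545 in WT under TGFβ and 2265 and 2112 under SB505124. Each TGFβ library was above each SB505124 library, the reverse of Hspa5, and under SB505124 the genotypes overlapped. The rise was 0.47 ± 0.081 in KO-labelled cells (limma adjusted p = 0.00017) and 0.30 ± 0.081 in WT (limma adjusted p = 0.00592), or 1.39-fold and 1.23-fold. In WT it did not pass without SB505124 replicate 2 (limma adjusted p = 0.0852) or TGFβ replicate 1 (limma adjusted p = 0.0645). KO-labelled minus WT was 0.18 under TGFβ (limma adjusted p = 0.0575, and 0.0167 without WT TGFβ replicate 1) and 0.011 under SB505124 (95% interval -0.16 to 0.18). Herpud1 shares 535 bases of its span with the antisense gene Gm15890, and strand cannot assign reads there either. Edem1, which encodes a mannosidase-like protein that marks misfolded glycoproteins for removal, had 3212 and 2991 normalised counts in KO-labelled cells under TGFβ, 3194 and 3096 under SB505124, 3051 and 2778 in WT under TGFβ and 3280.1 and 3114 under SB505124. Its log2 fold changes lay between -0.13 and 0.09 for treatment and genotype, with 0.11 for the difference between the TGFβ responses. TGFβ and SB505124 libraries overlapped in KO-labelled cells but not in WT.

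Xbp1, the transcription factor gene of the IRE1 branch, had 2036 and 2141 normalised counts in KO-labelled cells under TGFβ and 1237 and 1365 under SB505124. In WT cells it had 2808 and 2431 under TGFβ and 1751 and 1664 under SB505124. No groups overlapped, TGFβ libraries were higher in both genotypes and KO-labelled libraries were lower under both treatments. TGFβ against SB505124 gave 0.68 ± 0.088 in KO-labelled cells (limma adjusted p = 6.3e-06) and 0.61 ± 0.088 in WT (limma adjusted p = 2.1e-05), or 1.61-fold and 1.53-fold higher. KO-labelled against WT gave -0.32 ± 0.088 under TGFβ (limma adjusted p = 0.00367, 0.0585 without WT TGFβ replicate 1) and -0.39 ± 0.088 under SB505124 (limma adjusted p = 0.00086). Dnajb9, known as a target of the XBP1 factor, thus had the reverse signs of Xbp1 in each of these 4 comparisons.

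Counted over the 9 genes, 2 rose and 2 fell under TGFβ in KO-labelled cells, and 2 rose and 4 fell in WT. Of all 12498 genes tested, 15.1% were higher and 15.8% lower in KO-labelled cells, and 20.2% were higher and 23.2% lower in WT. Counts out of 9 near such shares are not a result about these genes as a set. The median log2 fold change of the 9 was -0.096 in KO-labelled cells and -0.13 in WT, against -0.016 and -0.011 over all genes. Called changes ran from a 1.80-fold fall (Dnajb9) to a 1.61-fold rise (Xbp1), both in KO-labelled cells.

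**Figure D3:**
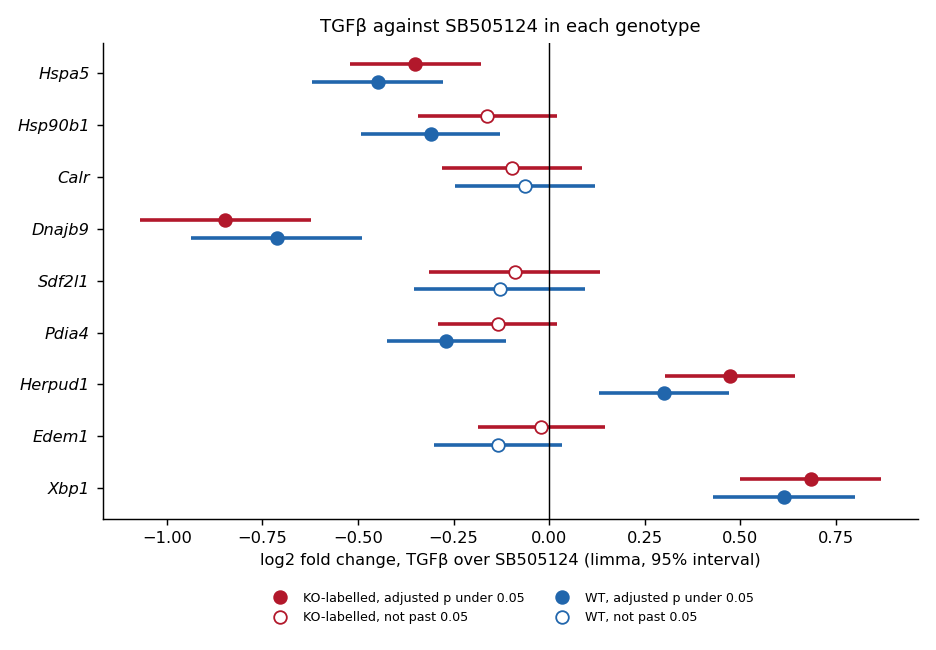
Log2 fold change of TGFβ over SB505124 for the 9 genes (horizontal axis, points with 95% intervals from limma), KO-labelled above WT for each gene, filled where the adjusted p was under 0.05. Dnajb9 and Hspa5 lie left of 0 and Herpud1 and Xbp1 right of it in both genotypes, with overlapping intervals.

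The difference between the TGFβ responses, KO-labelled minus WT, passed the test for 0 of the 9 genes, by limma, edgeR or DESeq2, and 0 had an unadjusted limma p under 0.05. Over all genes 2.25% had a higher and 0.568% a lower response in KO-labelled cells. The smallest adjusted p was that of Herpud1 (0.17, 95% interval -0.069 to 0.41, limma adjusted p = 0.486). Intervals were -0.14 to 0.34 for Hspa5, -0.45 to 0.18 for Dnajb9, -0.19 to 0.33 for Xbp1, -0.088 to 0.36 for Pdia4, -0.11 to 0.41 for Hsp90b1, -0.29 to 0.23 for Calr, -0.28 to 0.36 for Sdf2l1 and -0.12 to 0.35 for Edem1. Falls of Hsp90b1 and Pdia4 that passed in WT and not in KO-labelled cells are thus not shown to differ between the genotypes. With 2 libraries a group, differences of any size within these intervals remain compatible with the data.

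KO-labelled cells had 1 of the 9 genes higher and 3 lower than WT under each treatment: Dnajb9 higher, and Hspa5, Calr and Xbp1 lower. Genes that differed between genotypes were common, with 32.7% of all genes higher and 30.2% lower under TGFβ and 29.2% higher and 27.7% lower under SB505124, and counts of 1 and 3 out of 9 are not a result about these genes as a set beside such shares. The median of the 9 was 0.09 under TGFβ and -0.031 under SB505124, against 0.011 and 0.0091 over all genes. All called differences were under 1.5-fold. The comparisons within and between genotypes share libraries, so their values stand side by side and are not independent of each other.

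**Figure D4:**
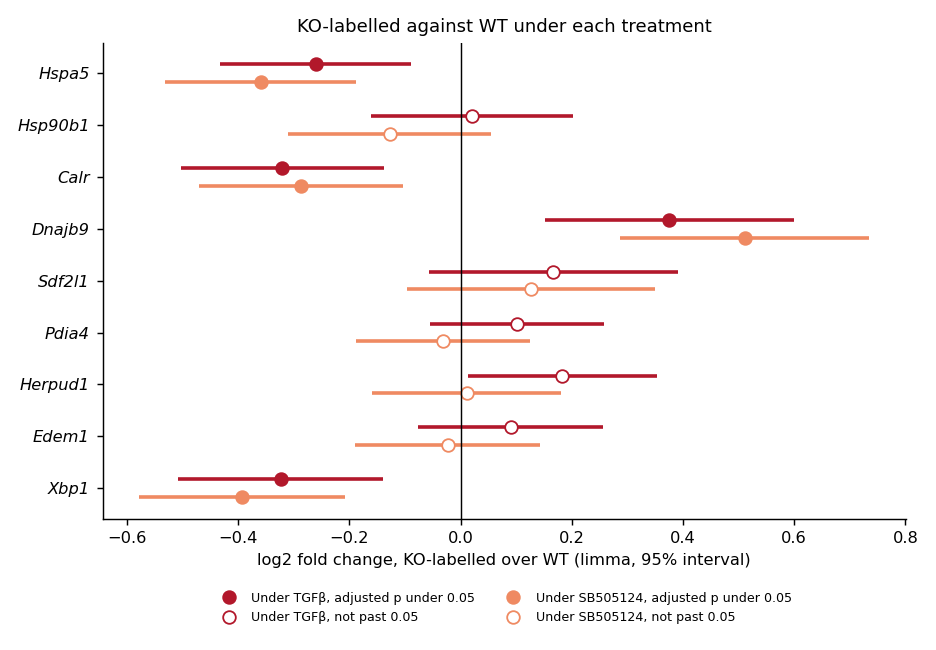
Log2 fold change of KO-labelled over WT for the 9 genes (points with 95% intervals from limma), TGFβ above SB505124 for each gene, filled where the adjusted p was under 0.05. Hspa5, Calr and Xbp1 lie left of 0 and Dnajb9 right of it under both treatments.

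Lists of genes around these 9 follow, and each count stands beside the shares over all genes. Under TGFβ those were 15.1% higher and 15.8% lower in KO-labelled cells and 20.2% and 23.2% in WT. Between genotypes they were 32.7% and 30.2% under TGFβ and 29.2% and 27.7% under SB505124. List counts near such shares are not a result about a list as a set. Of the UPR sensors and the proteases that activate ATF6, 2 of 8 tested genes rose and 2 fell under TGFβ in KO-labelled cells. In WT, 3 rose and 3 fell. Eif2ak3, which encodes PERK, had 2157 and 2134 normalised counts in KO-labelled cells under TGFβ and 1019 and 963 under SB505124, against 1195 and 1135 in WT under TGFβ and 724 and 754 under SB505124. It rose by 1.11 on the log2 scale in KO-labelled cells and by 0.66 in WT, and its 4 groups did not overlap. The ER-anchored factor gene Creb3l2 rose by 1.63 and 1.60, and Atf6 fell, with log2 fold changes of -0.69 and -0.78. Between genotypes, 3 rose and 1 fell under TGFβ and 2 rose and 3 fell under SB505124, with Creb3 lower (-0.86 and -0.82) and Creb3l2 higher in KO-labelled cells (0.84 and 0.81). The rise of Eif2ak3 was larger in KO-labelled cells by 0.46 ± 0.12 (limma adjusted p = 0.043), but the adjusted p was above 0.05 in 9 of 17 other settings and reached 0.219. Among these 9 were the fits that left out any library other than WT TGFβ replicate 1 and KO-labelled SB505124 replicate 1.

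In the PERK and ATF4 branch, which couples ER stress and amino acid shortage to a common set of targets, the TGFβ response was higher in KO-labelled cells than in WT for 4 of 12 genes and lower for 0 (3 to 6 in all when a library was left out). The median difference was 0.45, against 0.015 over all genes, of which 2.25% had a higher and 0.568% a lower response. The 4 were Trib3, Chac1, Vldlr and Atf3, the last (0.62) named after its value was seen. The call for Atf3 was lost in 9 of 17 other settings, among them the fits without any library other than WT TGFβ replicate 1 and KO-labelled SB505124 replicate 1. Trib3, a pseudokinase gene induced through ATF4, had 549 and 626 normalised counts in KO-labelled cells under TGFβ and 141 and 153 under SB505124, against 1356 and 1212 in WT under TGFβ and 788 and 782 under SB505124. Each TGFβ library was above each SB505124 library of its genotype, and KO-labelled libraries were the lower ones under both treatments. On the log2 scale its rise was larger in KO-labelled cells by 1.28 ± 0.15 (limma adjusted p = 6.9e-05). In normalised counts the rise was not larger, with means going from 147 to 588 in KO-labelled cells and from 785 to 1284 in WT. Its log2 level relative to WT was -1.13 under TGFβ and -2.41 under SB505124. Chac1, which encodes a glutathione-degrading enzyme, fell in WT (-0.88) and gave 0.28 in KO-labelled cells, which did not pass. Vldlr, a lipoprotein receptor gene, rose in KO-labelled cells (0.59) and fell in WT (-0.36), where the call was lost without SB505124 replicate 1 (limma adjusted p = 0.107). In KO-labelled cells and in WT, the mTORC1 inhibitor gene Ddit4 rose under TGFβ (2.42 and 2.41), and Ddit3, which encodes CHOP (-0.63 and -1.06), and Sesn2 fell (-0.45 and -0.92). In all, 5 rose and 3 fell in KO-labelled cells and 4 rose and 5 fell in WT. KO-labelled cells had 3 higher and 6 lower than WT under TGFβ and 0 higher and 9 lower under SB505124, with medians of -0.20 and -0.51. The stress-induced gene Nupr1 (-2.87 and -2.29) and Atf4 itself (-0.81 and -0.55) were among the lower ones. The C/EBP-ATF element, present in 3.97% of all windows, matched in 6 of the 12 genes: Trib3, Chac1, Atf3, Asns, Nupr1 and Vldlr. The list was made of known genes of this branch, so this is no test of enrichment either.

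Other chaperones of the BiP system, such as J-domain proteins and prolyl isomerases, had 3 of 13 higher and 1 lower under TGFβ in KO-labelled cells and 3 higher and 3 lower in WT. Hyou1, a nucleotide exchange factor of BiP, fell, with log2 fold changes of -0.34 and -0.55, while the prolyl isomerase gene Fkbp2 rose (0.30 and 0.41). In KO-labelled cells neither passed without TGFβ replicate 2, and Fkbp2 not without SB505124 replicate 1 either, with limma adjusted p of up to 0.108 for Hyou1 and 0.137 for Fkbp2. Neither passed with no variance trend. Between genotypes the list was mostly lower in KO-labelled cells, with 1 higher and 8 lower under TGFβ and 0 higher and 9 lower under SB505124. Its median log2 fold change was -0.27 and -0.29, against 0.011 and 0.0091 over all genes. Dnajc3, a cochaperone that also inhibits PERK, had 1854 and 1741 normalised counts in KO-labelled cells under TGFβ against 2965 and 2776 in WT (-0.68), and Creld2 gave -0.75. Both carry ERSE, like Hspa5. So do Hsp90b1 and Canx, which did not pass between genotypes, and the part of the element was not tested.

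Disulfide isomerases, oxidases and lectin chaperones build and check disulfide bonds and glycans. Under TGFβ, 4 of 16 rose and 1 fell in KO-labelled cells and 4 rose and 2 fell in WT, among them the isomerase gene Txndc5 (0.53 and 0.37) and the peroxiredoxin gene Prdx4 (0.31 and 0.41). Uggt2, a relative of the glycoprotein folding sensor, was lower (-0.38 and -0.71). The KO-labelled calls for Prdx4 and Uggt2 were lost without SB505124 replicate 1 or TGFβ replicate 2, and that for Uggt2 in 6 of 18 settings in all, with limma adjusted p of up to 0.135 for Prdx4 and 0.45 for Uggt2. KO-labelled cells had 1 higher and 8 lower than WT under TGFβ and 0 higher and 10 lower under SB505124 (median -0.24 and -0.33). Ero1l, the oxidase that recharges disulfide isomerases, had 1013 and 943 normalised counts in KO-labelled and 2274 and 2195 in WT cells under SB505124 (-1.19). Txndc12 (-1.06) and Erp44 (-0.94) were lower as well.

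Of the genes of the translocon and signal peptidase, through which new proteins enter the ER, 4 of 16 rose and 0 fell under TGFβ in KO-labelled cells, and 8 rose and 0 fell in WT (median 0.15 and 0.20, against -0.016 and -0.011 over all genes). Ssr4 of the translocon-associated complex rose by 0.43 in WT, the channel subunit gene Sec61g by 0.49 and Spcs1 of the signal peptidase by 0.35, and Sec11c rose by 0.46 in KO-labelled cells. The same list was lower in KO-labelled cells than in WT, with 0 higher and 11 lower under TGFβ and 0 higher and 12 lower under SB505124 (7 without KO-labelled SB505124 replicate 1). Spcs1 had 1664 and 1628 normalised counts in KO-labelled and 3339.9 and 3167 in WT cells under SB505124. Its log2 fold changes were -1.21 under TGFβ and -0.98 under SB505124.

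Among ERAD genes other than Herpud1 and Edem1, 2 of 18 rose and 2 fell under TGFβ in KO-labelled cells and 4 rose and 3 fell in WT. Edem3, a relative of Edem1, fell, with log2 fold changes of -0.43 and -0.78, and so did the ligase adaptor gene Sel1l (-0.25 and -0.51). In KO-labelled cells Edem3 did not pass without TGFβ replicate 2 (limma adjusted p = 0.0517), nor Sel1l without that library (limma adjusted p = 0.292) or SB505124 replicate 1. The call for Sel1l was lost in 5 of 18 settings in all. The ubiquitin-conjugating enzyme gene Ube2j1 rose (0.50 and 0.35). KO-labelled cells had 5 higher and 7 lower than WT under TGFβ (7 in all without KO-labelled TGFβ replicate 1) and 4 higher and 6 lower under SB505124 (6 in all without WT SB505124 replicate 2 or KO-labelled SB505124 replicate 1). Ube2j1 (-0.68 and -0.83) and the segregase gene Vcp (-0.66 and -0.63) were lower. In the COPII coat and the receptors that move cargo out of and back to the ER, 4 of 20 rose and 4 fell in KO-labelled cells under TGFβ and 5 rose and 9 fell in WT. The coat genes Sec23a (-0.48), Sec16a (-0.42) and Sec31a (-0.37) fell in WT, and the cargo receptor gene Mcfd2 rose (0.45 and 0.29, the WT value with a limma adjusted p of 0.134 without WT SB505124 replicate 2). KO-labelled cells had 8 higher and 8 lower than WT under TGFβ and 5 higher and 8 lower under SB505124. The KDEL receptor gene Kdelr3 was lower (-1.51 and -1.39) and Sec16a was higher (0.81 and 0.66).

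For TGFβ in KO-labelled cells, counts of 6 of the 9 lists fell by over 1.5 times without 1 library, and those of the sensors (3 to 5), the PERK and ATF4 branch (7 to 8) and heat shock (4 to 6) did not. Without KO-labelled TGFβ replicate 2 the totals were 0 for the other BiP-system chaperones, 2 for isomerases and lectins, 1 for ERAD, 1 for the translocon and 1 for COPII. Without KO-labelled SB505124 replicate 1 the same totals were 1, 2, 2, 1 and 1. The collagen total was 1 without either WT SB505124 library. In WT, the BiP-system total was 3 without WT SB505124 replicate 2, and the collagen total 3 without that library or without WT TGFβ replicate 1. The 4 calls among the 9 genes in KO-labelled cells held without each of the 8 libraries in turn. Lists not given a median above had medians under TGFβ, in KO-labelled cells and in WT, of 0.12 and -0.16 (sensors), 0.062 and -0.052 (PERK and ATF4), 0.062 and 0.022 (BiP system), 0.074 and -0.0029 (isomerases), 0.13 and 0.012 (ERAD), and 0.082 and 0.04 (COPII). Between genotypes, under TGFβ and SB505124, medians were 0.072 and -0.033 (sensors), 0.035 and -0.15 (ERAD), -0.37 and -0.31 (translocon), and -0.073 and -0.05 (COPII). In the difference between the responses, the totals of ERAD, the translocon and heat shock, each 0 in the main fit, changed without WT TGFβ replicate 1. That of the translocon also changed without KO-labelled SB505124 replicate 2.

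Collagen folding genes included a wide genotype difference. Serpinh1, which encodes the collagen chaperone HSP47, had 19.3 and 29.7 normalised counts in KO-labelled cells under TGFβ and 17.7 and 21.6 under SB505124, against 6148 and 4939.8 in WT under TGFβ and 4912 and 4722 under SB505124. Its log2 fold change was -7.79 ± 0.16 under TGFβ (limma adjusted p = 2.1e-17) and -7.87 ± 0.16 under SB505124 (limma adjusted p = 2.1e-17). The prolyl hydroxylase gene P4ha2 (-2.45 and -2.46) and the lysyl hydroxylase gene Plod1 under TGFβ (-1.04) were lower too, and Plod2 was higher under SB505124 (0.97). In all, 2 of 9 were higher and 7 lower under each treatment, with medians of -0.82 and -0.80. Under TGFβ, 2 rose and 2 fell in KO-labelled cells and 3 rose and 2 fell in WT, with the prolyl hydroxylase gene Leprel1 falling in both (-0.81 and -1.07). In KO-labelled cells the calls for P4ha2 (0.32) and Fkbp14 (-0.47) were lost in 9 and 10 of 18 other settings. Not all of those were fits without a library. The medians were 0.18 and 0.13.

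Heat shock genes outside the ER, a comparison set for chaperones in general, had 2 of 10 higher and 3 lower under TGFβ in KO-labelled cells and 3 higher and 5 lower in WT, with medians of -0.16 and -0.22. The cochaperone gene Bag3 rose (0.94 and 0.79), and Hsph1 fell (-0.57 and -0.53). KO-labelled cells had 3 higher and 2 lower than WT under TGFβ (3 in all without KO-labelled TGFβ replicate 1) and 1 higher and 1 lower under SB505124 (4 in all without either WT TGFβ library), with medians of 0.086 and 0.0084. Hspa1b was lower (-1.63 and -1.67), but it shares most of its sequence with Hspa1a, so its counts are uncertain.

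**Figure D5:**
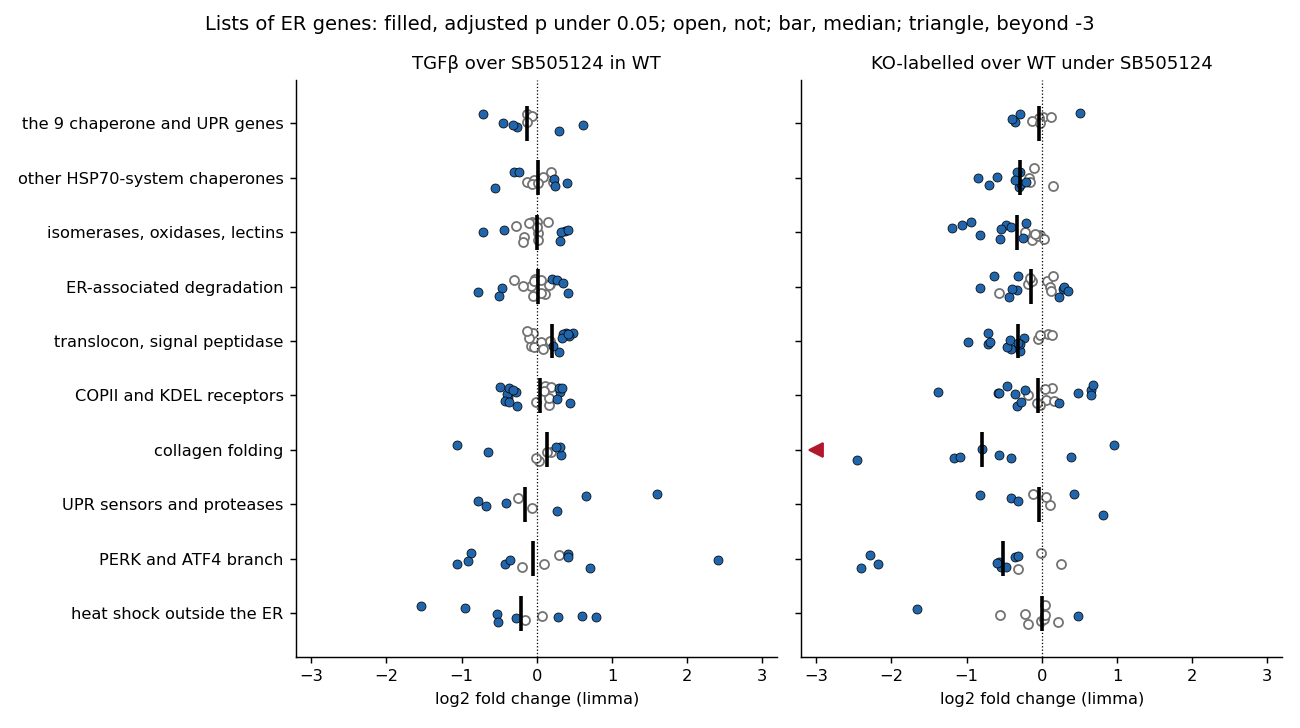
Log2 fold changes of the tested genes of each list (points, filled where the limma adjusted p was under 0.05, open where not) with the list's median as a bar, for TGFβ over SB505124 in WT (left) and KO-labelled over WT under SB505124 (right). A triangle marks Serpinh1, at -7.87, drawn at the edge of the axis. The translocon genes that passed lie right of 0 on the left panel and left of 0 on the right panel.

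Genes outside the 9 whose promoter window held ERSE or ERSE-II numbered 45, of which 22 were tested. Under TGFβ, 2 were higher and 2 lower in KO-labelled cells (15.1% and 15.8% of all genes). In WT, 4 were higher and 5 lower (20.2% and 23.2%). KO-labelled cells had 3 higher and 13 lower than WT under TGFβ (32.7% and 30.2% of all genes). Under SB505124, 3 were higher and 10 lower (29.2% and 27.7%). Median log2 fold changes were -0.30 under TGFβ and -0.27 under SB505124, against 0.011 and 0.0091 over all genes. Canx, Creld2, Dnajb11, Dnajc3, Pdia6 and Syvn1 were already counted in the lists above. The set with the elements was formed by sequence with the results known, so it has no test. Of the 4 genes whose sequence is printed, Hspa5 and Calr were lower in KO-labelled cells, and Hsp90b1 and Herpud1 did not pass.

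The genes most like Hspa5 over the 8 libraries, by Pearson r of log2 values among 12489 genes, were Cpox (0.995), Rarg (0.994), Cnst (0.991), Xkr8 (0.988) and Prrg1 (0.988). Cpox, which encodes an enzyme of haem synthesis, had 1638 and 1649 normalised counts in KO-labelled cells under TGFβ, against 3283 and 3320.3 in WT under SB505124, and so took the order of groups of Hspa5 with a wider range. The genes most like the mean standardised profile of the 9, which averages genes that moved in opposite directions, were AU040320 (0.973), Lrig1 (0.972), Espl1 (0.961), Dph1 (0.959) and Scaf4 (0.957). The 8 libraries form 4 groups of 2, so these values mostly reflect the order of 4 group means and carry no p.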

How the data were processed

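Per the labels' protocols, the sequencing libraries came from the TruSeq RNA v2 chemistry, in which strand is not kept. The table holds a signal value per gene and library, deposited by the authors as normalised counts: read counts divided by a size factor per library. The tools named, per the submitters' processing notes, are HTSeq 0.6.1p1, DESeq2 3.4 and FastQC 0.11.5, with the mm10 build, and the aligner is not given in the sources used here. Reads were recovered by dividing each value by its library's smallest step, and 100% of values came out whole within 0.01 reads.

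Comparisons used limma 3.58.1 (R 4.3.3) on log2(value + 1), with 4 group means over all 8 libraries, a variance trend and Benjamini-Hochberg adjustment over 12498 genes with a mean of at least 10. The threshold was 0.05. The variance trend carried 14.3 prior degrees of freedom against 4 residual ones, so each SE and p-value rests largely on the trend over all tested genes. A log2 fold change is on that scale and understates changes of low genes. On recovered reads, edgeR 4.0.16 called 4023 genes for TGFβ in KO-labelled cells, 5552 in WT, 418 for the difference of responses, 7926 for KO-labelled against WT under TGFβ and 7233 under SB505124. DESeq2 1.42.0, other pseudocounts, scalings and filters, a replicate block and leaving out each library were the other alternatives. Counting errors take reads as independent and cover nothing else.

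The 9 genes and the lists around them were chosen with earlier results of these data known. Besides the 9 genes, the text names up to 3 genes per list and comparison with the smallest p among those that passed, and the 5 genes most like Hspa5 and the mean profile. A gene so named is also given in other comparisons. Fam8a1 and Colgalt1 of the lists, and the markers Cldn3, Plin1 and Lep, had no values under these names and so were not analysed here. Of the lists, Ern2, Creb3l1, Derl3, Fkbp10 and Leprel2 had a mean under 10 and were not tested. Promoters came from RefSeq (GRCm38.p6) and gene spans and exon lengths from GENCODE M21. Python 3.11.15 with pandas 2.3.3 and matplotlib 3.10.9 searched the motifs and drew the figures.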

Additional observations from a re-analysis of the deposited data

Results flagged for a closer look

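For 5 genes of the lists, the TGFβ response differed between genotypes by the test of the difference itself, given as KO-labelled minus WT on the log2 scale. The difference was 1.28 for Trib3 (limma adjusted p = 6.9e-05), which rose in both genotypes. It was 1.16 for Chac1 (limma adjusted p = 0.00039), with log2 fold changes of 0.28 in KO-labelled cells and -0.88 in WT. For Vldlr it was 0.95 (limma adjusted p = 0.00039), with normalised counts of 1036 and 1002 under TGFβ and 683 and 671 under SB505124 in KO-labelled cells, against 680.0 and 633 and then 898 and 787 in WT. For Eif2ak3 it was 0.46 (limma adjusted p = 0.043), between 0.42 and 0.50 over 17 other settings, with an adjusted p above 0.05 in 9 of them. For Atf3, a stress-induced transcription factor gene named after its value was seen, it was 0.62 (limma adjusted p = 0.0326), with a log2 fold change of 1.03 in KO-labelled cells and 0.41 in WT. Its adjusted p was above 0.05 in 9 of 17 other settings. Groups of 2 libraries do not allow a test for a library far from the others.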

How the results depend on the processing

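Over 45 results for the 9 genes and 801 values from other settings, 770 kept direction and side of the threshold. All 11 lost or gained calls came from leaving out a library and stand beside their genes in the report, and the 9 genes' calls were the same with edgeR, DESeq2, TMM and equal totals. Called genes numbered 4 in KO-labelled and 4 to 6 in WT cells for TGFβ, 0 for the difference, and 3 to 4 between genotypes. Signs turned only for differences that did not pass. KO-labelled against WT under SB505124 gave -0.017 with TMM, -0.0084 with equal totals and -0.012 with edgeR for Herpud1, and under TGFβ -0.0069 with edgeR for Hsp90b1. Without 1 library, TGFβ in KO-labelled cells ranged from -0.23 to 0.053 for Sdf2l1 and -0.072 to 0.030 for Edem1. The difference of responses ranged from -0.10 to 0.18 for Sdf2l1, -0.092 to 0.026 for Calr and -0.034 to 0.17 for Xbp1. KO-labelled against WT ranged under SB505124 from -0.039 to 0.062 for Herpud1, -0.016 to 0.27 for Sdf2l1 and -0.061 to 0.014 for Edem1, and under TGFβ from -0.033 to 0.075 for Hsp90b1. The cause was not tested. Of 3433 values of 191 results for named list genes, 3257 kept their call, 176 lost it and 0 turned sign. Over all genes, the difference passed for 352 genes, for 47 with no variance trend and for 1027 without WT TGFβ replicate 1, and TGFβ in KO-labelled cells for 3864 and for 2320 without KO-labelled TGFβ replicate 2. With equal totals the split for TGFβ was 1608 higher and 2528 lower in KO-labelled cells and 2067 higher and 3459 lower in WT, against 1888 and 1976 and then 2520 and 2896. With the replicate block 4, 6, 0, 4 and 4 of the 9 genes passed for TGFβ in KO-labelled cells, in WT, for the difference, and for genotype under TGFβ and SB505124. Deviations of same-numbered libraries correlated at 0.20 between the WT groups, 0.10 between the KO-labelled groups and -0.20 to -0.025 between genotypes. The labels do not say whether the numbers mark a shared culture or day, and these values cannot decide it. With 2 libraries a group, differences of any size within the printed intervals remain compatible with the data.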
